A study of Mus musculus with 23 samples.

Results

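Dnm3 encodes dynamin-3, and 32 R-loop intervals stood in a row inside this gene, with none elsewhere within 500 kb of it. The intervals described here are all those of 4 merged CUT&Tag lists that lay over Dnm3 (gene 103967, chromosome 1, 161982450 to 162478321, mm10) or within 500 kb on either side. They were chosen by position. The gene itself was picked because R-loop intervals crowd there, so its R-loop count is a description and carries no test. The window held 49 of the 29404 deposited intervals, namely 32 R-loop, 15 RNA polymerase II, 2 H3K9me3 and 0 DDX55 intervals. Windows with the same flanks over the shorter related genes Dnm1 and Dnm2 held 18 and 31 intervals.

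The intervals came from CD4+ naive T cells of mouse spleen and lymph nodes (labelled pLN). The mice were wild type (WT) or knocked out for DDX55, a DEAD-box RNA helicase, and the labels used here give no allele, Cre driver, age or number of mice. CUT&Tag sends a transposase to the DNA around an antibody's target, and the sequenced fragments are turned into intervals of enriched signal. Of 23 samples, 8 were profiled for DNA-RNA hybrids with the antibody S9.6 (4 WT and 4 knockout, of which 4 in all received 20 U of RNase H, an enzyme that digests the RNA of such hybrids), and 4 each for RNA polymerase II, the heterochromatin mark H3K9me3 and DDX55 (2 WT and 2 knockout per target). The other 3 samples, 2 with an HA tag antibody and 1 with IgG, cite no list.

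Each list pools the samples that cite it and gives a start and an end only. There is no height, count or value per sample, so the depth is unknown, no spread between replicates exists, and no difference between genotypes or with RNase H can be measured. An R-loop interval therefore marks S9.6 signal called in the pooled samples, and its sensitivity to RNase H was not analysed here. In such bulk profiles, strong signal in few cells and weak signal in many cells cannot be told apart.

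RNA polymerase II intervals were used to check the labelled cell type. A gene end here means 3000 bp on each side of either end of a gene, and across 21887 protein-coding genes 33.5% had an RNA polymerase II interval there. Of 9 naive CD4 T cell markers 7 had one, among them Cd3e, Cd4, Ccr7 and Lef1, and Tcf7 had none at its ends but held 6 inside the gene. The count was 1 of 5 for B cells (Cd79a), 1 of 5 for CD8 T and NK cells (Prf1), 1 of 5 for myeloid cells (Cd68) and 0 of 5 for neurons. The neuron marker Syp also had none at its ends but held 1 inside the gene. Neurons were included because Dnm1 and Dnm3 are best known from brain.

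Dynamins are large GTPases that assemble as a collar around the neck of a budding vesicle and cut it from the membrane. Mammals have a family of these genes. Dnm1 serves synaptic vesicle recycling in neurons, Dnm2 is used in most tissues, and Dnm3 is found mainly in brain and testis. R-loops are stretches where RNA pairs with one DNA strand and leaves the other single, and they commonly form during transcription by RNA polymerase II. Each of the dynamin genes also holds a microRNA of the miR-199 family. The Dnm3 copy, Mir199a-2, lies with Mir214 in Dnm3os, a long noncoding RNA transcribed from the strand opposite to Dnm3.

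The start sites of these genes are shown first because RNA polymerase II marked only the Dnm2 start among them. The 250 bases before each RefSeq start site (GRCm38.p6, the coordinates of mm10) are written 5′ to 3′ on the gene's strand, with every CG dinucleotide in capitals.
Dnm3, chr1:162478035-162478284, minus strand: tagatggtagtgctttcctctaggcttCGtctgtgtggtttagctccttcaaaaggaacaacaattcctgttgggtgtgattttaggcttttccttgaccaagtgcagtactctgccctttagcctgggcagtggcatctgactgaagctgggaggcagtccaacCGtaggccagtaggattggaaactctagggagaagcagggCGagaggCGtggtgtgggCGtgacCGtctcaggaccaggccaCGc
Dnm2, chr9:21424658-21424907, plus strand: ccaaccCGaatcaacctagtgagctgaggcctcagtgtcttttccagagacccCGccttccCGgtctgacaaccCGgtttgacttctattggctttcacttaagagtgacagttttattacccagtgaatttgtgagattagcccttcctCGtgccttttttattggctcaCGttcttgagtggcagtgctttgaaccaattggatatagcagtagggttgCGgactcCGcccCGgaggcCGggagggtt
Dnm1, chr2:32353330-32353579, minus strand: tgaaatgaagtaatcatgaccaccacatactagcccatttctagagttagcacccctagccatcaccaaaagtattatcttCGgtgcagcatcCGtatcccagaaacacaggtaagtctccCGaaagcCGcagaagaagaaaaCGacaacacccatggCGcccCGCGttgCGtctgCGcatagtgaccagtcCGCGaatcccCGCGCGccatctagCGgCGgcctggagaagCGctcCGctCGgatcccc
Dnm3os, chr1:162217373-162217622, plus strand: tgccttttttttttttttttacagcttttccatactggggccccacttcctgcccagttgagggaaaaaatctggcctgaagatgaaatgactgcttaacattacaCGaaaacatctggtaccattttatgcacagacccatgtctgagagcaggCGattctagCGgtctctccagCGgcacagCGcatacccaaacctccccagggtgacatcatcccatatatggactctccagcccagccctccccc

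The Dnm3 start was not short of CG when set beside other start sites. In windows of 300 bp, which add the 50 bases after the start, CG occurred 12 times at Dnm3, 17 times at Dnm2, 28 times at Dnm1 and 5 times at Dnm3os, against a median of 7 over 32851 RefSeq start windows. Of those windows, 94.6% held CG at least once, and 60.4% held fewer CG than the Dnm3 window. The motif GGGCGG, searched on both strands, occurred once each at Dnm2 and Dnm1, was not found at Dnm3 or Dnm3os, and was present in 35.7% of all windows. These counts describe letters only.

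No interval of any list reached the Dnm3 start window. The nearest R-loop interval lay 167 kb from it and the nearest RNA polymerase II interval 92.0 kb away, at Vamp4. The Dnm2 start window was overlapped by an RNA polymerase II interval of 509 bp at 21424508 to 21425016 of chromosome 9. The Dnm1 start had no interval, and the nearest of RNA polymerase II lay 42.0 kb away.

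**Figure D1:**
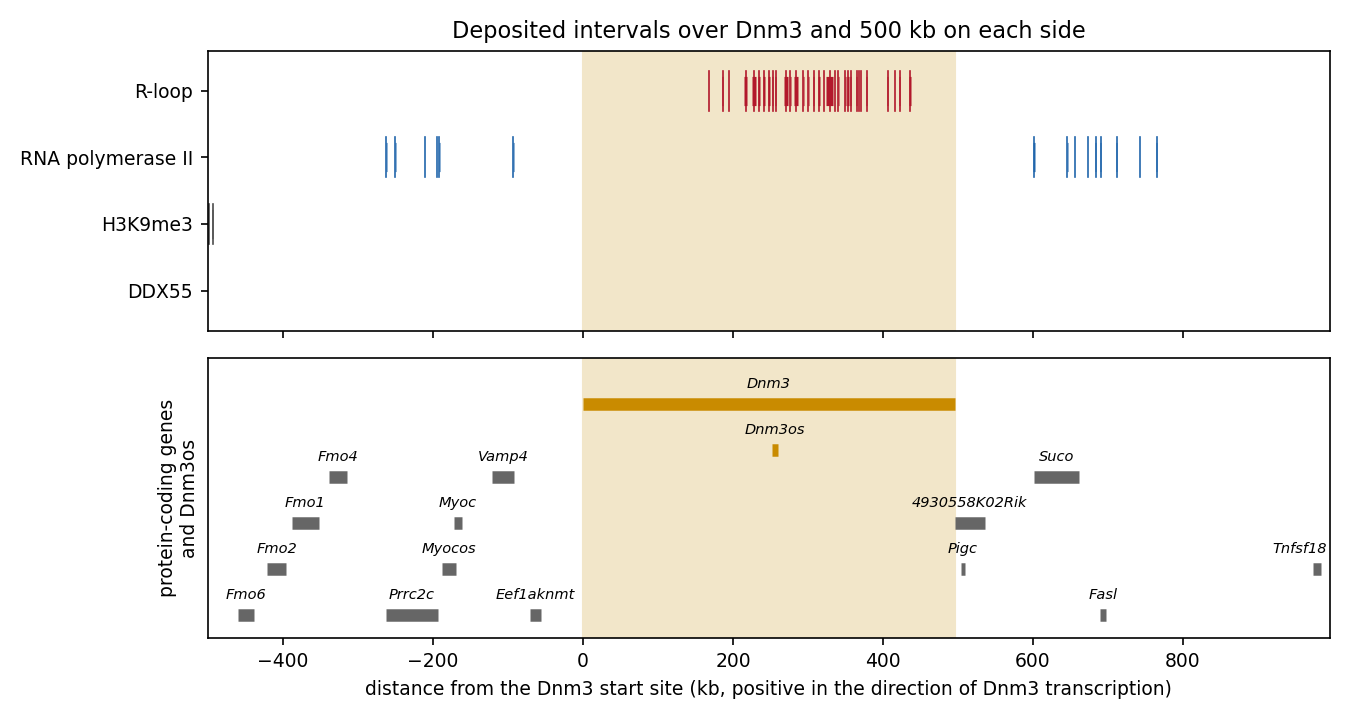
Intervals of the 4 lists (top, each drawn at its position with a thin line at its middle) and the protein-coding genes wholly inside the window with Dnm3os (bottom), by distance in kb from the Dnm3 start site, with the span of Dnm3 shaded. All 32 R-loop intervals stand inside Dnm3, with middles 168 to 436 kb after its start, while the 15 RNA polymerase II intervals stand outside it on both sides.

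The R-loop intervals formed one block in the middle and later part of Dnm3. The first, in the direction of transcription, began 167 kb after the start site, and the last ended 58.7 kb before the end of the gene. The block ran from 162041155 to 162310546, a length of 269 kb or 54.3% of the gene. Its 32 intervals covered 62941 bp, which is 23.4% of the block and 12.7% of the gene. Dnm3 thus held 2.17% of the 1473 R-loop intervals on chromosomes 1 to 19, X and Y and 4.97% of the bases they cover. Their density was 64.5 intervals per Mb of Dnm3, against 0.545 per Mb over the 2704 Mb between the outermost features of the chromosomes.

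Counted from the start site in steps of 50 kb, the first 150 kb of Dnm3 held no R-loop interval. The next step, up to 200 kb, held 3 intervals and was 3.50% covered. Coverage then stood at 31.9% between 200 and 250 kb, 32.7% between 250 and 300 kb and 35.6% between 300 and 350 kb, with 5, 6 and 8 intervals. It was lower further on, at 13.3% between 350 and 400 kb and 8.77% between 400 and 450 kb, and the last 45.6 kb of the gene held none. The block was therefore fullest over 150 kb in its middle and thinned toward both sides.

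The intervals were wide for this list. Their widths ran from 370 to 9249 bp with a median of 1387 bp, whereas the other 1441 R-loop intervals had a median of 518 bp. Of the 32, 28 were wider than the median of the whole list (524 bp) and 21 (65.6%) were wider than its upper quartile (973 bp), which 24.1% of the others exceeded. These intervals are neighbouring places of the same gene in the same pooled list and are no replicates, and no test of widths was made.

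The widest interval, 9249 bp at 162144731 to 162153979, was rank 4 of the whole list by width and lay 329 kb after the start site. The next were 5626 bp at 162247706 to 162253331 (rank 12), 5207 bp at 162191136 to 162196342 (rank 13), 4334 bp at 162205038 to 162209371 (rank 20) and 3979 bp at 162258827 to 162262805 (rank 22). These 5 intervals lay within 118 kb and made up 45.1% of the covered bases. The 3 intervals nearest to the start of Dnm3 were all narrow, at 569, 620 and 562 bp. On the far side widths were mixed, with 1650, 969, 430 and 1335 bp in the last 4 intervals before the end of the gene.

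**Figure D2:**
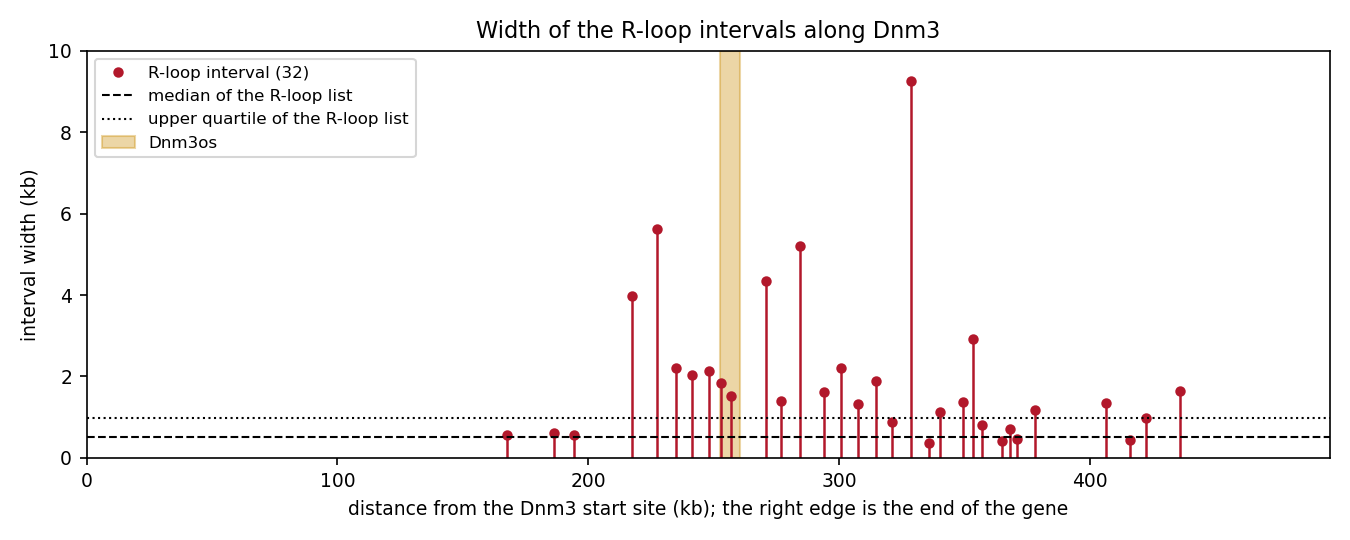
Width in kb of each of the 32 R-loop intervals (vertical axis) against the distance of its middle from the Dnm3 start site in kb, with the median (524 bp) and upper quartile (973 bp) of the R-loop list as lines and Dnm3os as a band. The 5 widest intervals, 3979 to 9249 bp, stand between 217 and 329 kb, and the 3 nearest to the start are 562 to 620 bp wide.

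Neighbouring intervals stood close together but did not touch. The 31 gaps between them had a median of 5173 bp and ran from 1729 to 27242 bp, and 26 were under 10 kb. Joining intervals under 1000 bp apart left 32, because no gap was that short. The longest gaps lay toward the edges of the block, 27242 bp between the fourth and the fifth interval from the end of the gene and 20572 bp between the third and the fourth from its start. If gaps of over 20 kb were taken to end a block, the core held 25 intervals over 163 kb and was 34.8% covered. Across the 32 intervals, Spearman's rho between width and distance from the centre of the block was -0.35, a description over neighbouring places of 1 gene. When the block was cut into 3 equal parts, the middle part held 47.4% of the covered bases, the part nearer to the start of the gene 33.1% and the part nearer to its end 19.5%.

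Dnm3os lay inside the fullest part of the block, and R-loop intervals met it in its middle and at its end. This 7928 bp gene (gene 474332, 162217623 to 162225550) was overlapped by an interval of 1523 bp at 162220501 to 162222023 and by another of 1826 bp at 162224300 to 162226125. Together they covered 2774 bp of it, or 34.99%. Its start window held no interval, and the nearest R-loop interval was 2.83 kb away.

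The microRNA hairpins themselves lay between the intervals. Mir199a-2 (162217814 to 162217923) was 8442 bp from the interval before it and 2577 bp from the next. Mir214 (162223368 to 162223477) fell in the gap between the pair of intervals over Dnm3os, at 1344 and 822 bp. The mature sequences of 4 of the 5 microRNA genes looked up in the dynamin genes were found in RefSeq (GRCm38.p6), and they are shown because a 3p product of the same sequence is listed for the copies in Dnm3, Dnm2 and Dnm1. A 5p product is shown for the Dnm3 and Dnm2 copies. The seed, bases 2 to 8, is in capitals.
mmu-miR-199a-3p, from Mir199a-2 in Dnm3 and Mir199a-1 in Dnm2: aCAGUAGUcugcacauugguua
mmu-miR-199b-3p, from Mir199b in Dnm1: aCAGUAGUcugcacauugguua
mmu-miR-199a-5p, from Mir199a-2 in Dnm3 and Mir199a-1 in Dnm2: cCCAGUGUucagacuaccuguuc
mmu-miR-214-3p, from Mir214 in Dnm3: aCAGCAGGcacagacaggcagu
mmu-miR-214-5p, from Mir214 in Dnm3: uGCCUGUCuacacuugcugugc

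By seed these fall into 4 groups. CAGUAGU joins miR-199a-3p and miR-199b-3p, which have the same mature sequence. Among 1679 mature names in the table, CAGCAGG was shared by miR-214-3p and miR-761, and CCAGUGU and GCCUGUC each belonged to 1 name. No 5p product of Mir199b was listed there, so the seed of such a product was not compared. The hosts differed in R-loop intervals nonetheless. The nearest one to Mir199a-1 in Dnm2 was 1637005 bp away and the nearest to Mir199b in Dnm1 was 971735 bp away. Mir3120 was also on the list.

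Other annotated transcripts in Dnm3 stayed outside the block. The long noncoding RNA genes 2810442N19Rik, near the end of Dnm3, and Gm39688 and Gm31985, near its start, held 0 intervals of every list. The distance from 2810442N19Rik to the block was 24669 bp, and from Gm39688 it was 69755 bp. Exons and introns of Dnm3 were not analysed here.

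RNA polymerase II, H3K9me3 and DDX55 intervals were absent from the whole of Dnm3. Over all protein-coding genes, 32.2% had an RNA polymerase II interval inside their span, 5.4% an H3K9me3 interval and 0.324% a DDX55 interval. An absence of the latter pair is therefore the common state over all genes. Among the 206 other genes of similar length, described below, 22.3% held an RNA polymerase II interval and 45.6% an H3K9me3 interval. All 32 R-loop intervals lay wholly inside Dnm3, so none could meet an interval of another list, and this adds nothing to that absence. Elsewhere, 51 of 1441 R-loop intervals (3.54%) met an RNA polymerase II interval, 271 (18.8%) an H3K9me3 interval and 23 (1.60%) a DDX55 interval.

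Distances to the next intervals were taken from the block for R-loop intervals and from Dnm3 for the other lists. They were set beside the spaces between neighbouring intervals of each list. The stretch without RNA polymerase II around Dnm3 ran for 693 kb, from the 1690 bp interval at Suco (161875718 to 161877407) to the 1624 bp interval at Vamp4 (162570242 to 162571865). Such a stretch was not rare, since 825 of 10877 spaces between RNA polymerase II intervals were as long. The stretch without H3K9me3 was 4281 kb, and 37 of 16453 spaces in that list were as long. DDX55 intervals were 16024 kb from Dnm3 on one side and 8586 kb on the other. In that list 30 of 194 spaces were as long as the whole stretch. On the side of the gene's end, the nearest R-loop interval outside the block lay 595 kb from it (161444760 to 161446134, just outside the window). On the side of the gene's start, the nearest lay 2151 kb from the block. Long spaces were common in this list, since 295 of 1452 reached the 3015 kb between those neighbours of the block.

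Around Dnm3, 15 other protein-coding genes lay within 500 kb, and 4 of them had an RNA polymerase II interval in the gene or within 3000 bp of it, beside 36.5% of all protein-coding genes. The interval at Vamp4, a vesicle SNARE gene upstream of Dnm3, lay 91.9 kb from it. Prrc2c, further upstream, had 5 in the gene or within 3000 bp of it, the widest 1459 bp at 162669052 to 162670510, just outside the span. On the other side Suco, whose product sits in the endoplasmic reticulum, held 3. Fasl, the gene for the death ligand FasL, had 1 of 1030 bp over its edge nearer to Dnm3 (161787484 to 161788513).

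The remaining 11 protein-coding neighbours had no RNA polymerase II interval in or beside them. They include the genes nearest to Dnm3, 4930558K02Rik and Pigc, a gene of GPI anchor synthesis, after its end and the methyltransferase gene Eef1aknmt before its start. Others were Tnfsf18, the gene for the ligand of GITR, the myocilin gene Myoc, and Myocos, Fmo1, Fmo2, Fmo4 and Fmo6. No neighbour had an R-loop or DDX55 interval. All R-loop intervals of this window lay inside Dnm3, and 2 of them also overlapped Dnm3os.

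The other dynamin genes had no R-loop interval in or within 500 kb of them. Dnm1 (gene 13429, chromosome 2, 32308471 to 32353349) is 44.9 kb long and held 0 intervals of all 4 lists. Dnm2 (gene 13430, chromosome 9, 21424908 to 21507759) is 82.9 kb long and held 2 RNA polymerase II intervals, the 509 bp one over its start and one of 598 bp at 21449725 to 21450322, 25.1 kb into the gene. Both were narrower than the median of their list (638 bp), so neither remained when only the wider 50% of that list was used. Another of 260 bp lay just beyond the end of Dnm2. The nearest R-loop interval was 937 kb from Dnm1 and 1565 kb from Dnm2. Dnm3 is 11.05 times as long as Dnm1 and 5.99 times as long as Dnm2, so length differs along with the R-loop count.

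In the wider dynamin superfamily RNA polymerase II intervals were common at gene ends. Of 12 listed genes 10 were annotated as protein-coding, and 7 of these had an RNA polymerase II interval at a gene end, beside the 33.5% of all protein-coding genes. They were Dnm2, the mitochondrial fission gene Dnm1l (426 bp), the mitochondrial fusion genes Mfn1 (369 bp) and Opa1 (470 bp), and the endoplasmic reticulum atlastin genes Atl1 (456 bp), Atl2 (1453 bp) and Atl3 (943 bp). Dnm1, Dnm3 and Mfn2 had none. With the wider 50% of the list, 2 of the 10 had one, beside 21.6% of all genes. Apart from Dnm3, which was picked for its R-loop intervals, none of the 10 held an R-loop interval, beside 1.59% of all protein-coding genes. None held an H3K9me3 interval (5.4% of all) or a DDX55 interval (0.324% of all).

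Among 41 genes of clathrin-mediated endocytosis, whose products work with dynamins, 20 had an RNA polymerase II interval at a gene end, beside 33.5% of all protein-coding genes, and 0 held an R-loop interval. In alphabetical order the first 10 with RNA polymerase II were Aak1, Ap2a1, Ap2a2, Ap2b1, Cltb, Cltc, Epn1, Eps15, Eps15l1 and Fcho2. They include subunits of the AP-2 adaptor, such as Ap2a2 (1007 bp), and Cltc, the clathrin heavy chain gene (1901 bp). Other genes of the same complexes, Ap2m1, Ap2s1 and the clathrin light chain gene Clta, were among the 21 without one at a gene end. Clta held 2 inside the gene, while Ap2m1 and Ap2s1 held 0. By overlap with the gene span, 24 of the 41 had one, beside 32.2% of all protein-coding genes. An R-loop interval lay in 1.59% of protein-coding genes, so 0 of 41 is near what that share gives. None of the 41 had an H3K9me3 or DDX55 interval in its span, where the shares of all genes are 5.4% and 0.324%.

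Long genes more often hold an R-loop interval, so Dnm3 was set beside genes from 20% shorter to 25% longer than it. There were 206 others, of 400.4 to 610 kb, and 32 of them (15.5%) held at least 1 R-loop interval, against 1.59% of all protein-coding genes. Most of those had few, 25 with 1 interval and 5 with 2. The 206 genes together held 52 intervals covering 41.5 kb, less than the 62.9 kb in Dnm3. The rule for choosing Dnm3 used this count, so the order below is given without a test.

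After Dnm3, the gene of this length class with most R-loop intervals was Pard3, a cell polarity gene (548906 bp), with 13 intervals covering 18900 bp. Atrnl1 had 4 (4038 bp). Tshz2 (1518 bp), Plxdc2 (1362 bp), the protein kinase gene Prkce (1338 bp) and Zfp536 (616 bp) had 2 each. The recombination gene Rad51b (1383 bp), Syne1, which encodes a nuclear envelope protein (1163 bp), and the ataxin gene Atxn1 (1009 bp) had 1. Per Mb of gene, Pard3 held 23.7 intervals and Atrnl1 7.66, against 64.5 in Dnm3. Between Dnm3 and Pard3 the difference was 32 against 13, and no other gene of this class came above 4.

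**Figure D3:**
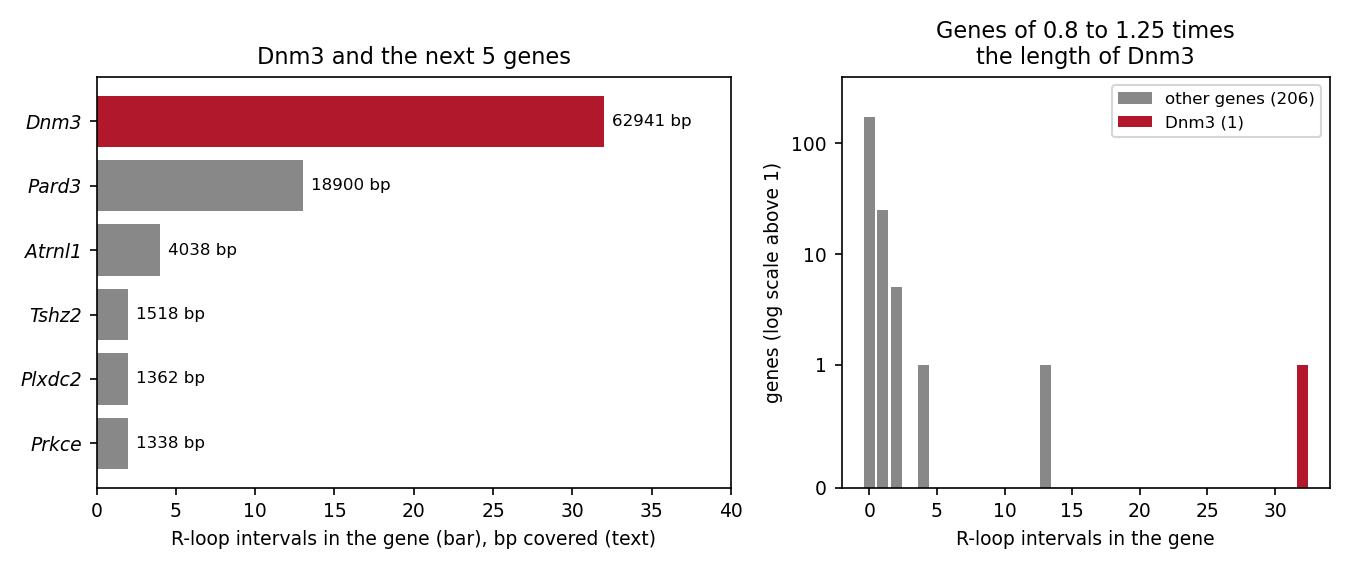
Left, R-loop intervals (bars) and bp covered (text) in Dnm3 and the next 5 genes from 20% shorter to 25% longer than it. Right, how many of the 206 other genes of that length (vertical axis, logarithmic above 1) hold each number of intervals, where 174 hold 0, Pard3 holds 13 and Dnm3 holds 32.

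The absence of other marks in Dnm3 was shared by many genes of its length. Of the 206, 46 (22.3%) held an RNA polymerase II interval in their span and 27 (13.1%) had one at a gene end. An H3K9me3 interval lay in 94 (45.6%) and a DDX55 interval in 3, namely Cadps2, Dach2 and Rtl4, a trio picked out after its values were seen. No interval of these 3 lists lay in 79 of the 206 genes. Of the 32 with an R-loop interval, 13 also held an RNA polymerase II interval.

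Over all 21887 protein-coding genes, 348 held an R-loop interval, 304 of them just 1, and 3 genes (0.0137%) held 10 or more. These were Dnm3, Ttll5, a tubulin glutamylase gene, with 13 intervals covering 22455 bp, and Pard3. Next came the transcription factor gene Sox5 with 9, the nuclear receptor gene Rora with 8, Uaca with 6, and Fam163b, the GDNF receptor gene Gfra1, the neuropilin gene Nrp1 and Atrnl1 with 4 each. Of these 10 genes, 3 held an RNA polymerase II interval (Ttll5, Rora and Atrnl1), 2 an H3K9me3 interval (Rora and Atrnl1) and 0 a DDX55 interval, beside 32.2%, 5.4% and 0.324% of all protein-coding genes.

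Per length, Dnm3 was not at the top. Among these 10 genes the density was 125 intervals per Mb in Fam163b (32099 bp) and 68.8 in Uaca (87226 bp), against 64.5 in Dnm3 and 56.8 in Ttll5. Shorter genes with fewer intervals were also denser, such as Dbh with 3 intervals (170 per Mb). By share of the gene covered, Dnm3 ranked 13 of all protein-coding genes at 12.7%, behind short genes such as Dbh (54.7% of 17698 bp) and Cd4 (36.2% of 23555 bp). Among the 10 genes with the most intervals, only Fam163b had a larger share covered (23.2%).

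The block was then compared with other rows of R-loop intervals, whatever genes they held. Intervals up to 50 kb apart were joined into a run, which gave 991 runs, of which 879 were single intervals and 30 held 5 or more. The Dnm3 run ranked 3 both by number and by covered bases. When only gaps of up to 20 kb were joined, it held 25 intervals over 163 kb instead of 32 over 269 kb and ranked 2 by number. Above it were a run of 91 intervals in the immunoglobulin heavy chain locus Igh (chromosome 12, 114962799 to 115952402) and one of 52 on chromosome 18 without protein-coding genes (81171927 to 81743915). Below it were runs of 22 on chromosome 15 (61586066 to 61882371, no protein-coding gene), 16 over Adamtsl2, Fam163b, Dbh and Sardh (chromosome 2, 27101065 to 27210482) and 14 on chromosome 9 (60997400 to 61216507, no protein-coding gene).

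The Dnm3 run was shorter than the 2 larger ones and more closely packed. It held 11.9 intervals per 100 kb and was 23.4% covered, against 9.20 and 13.8% in the Igh run and 9.09 and 15.04% in the chromosome 18 run. The Dbh run was denser still, at 14.6 intervals per 100 kb and 29.2%. The chromosome 15 run, of nearly the same length as that of Dnm3 (296 kb), was 7.80% covered. The median width was 1387 bp in the Dnm3 run, 1174 bp in the Igh run, 1376 bp in the chromosome 18 run and 1341 bp in the Dbh run, and it was lower in the chromosome 15 run (723 bp) and the chromosome 9 run (965 bp). With 1 value per run and no replicate, none of these differences could be tested.

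**Figure D4:**
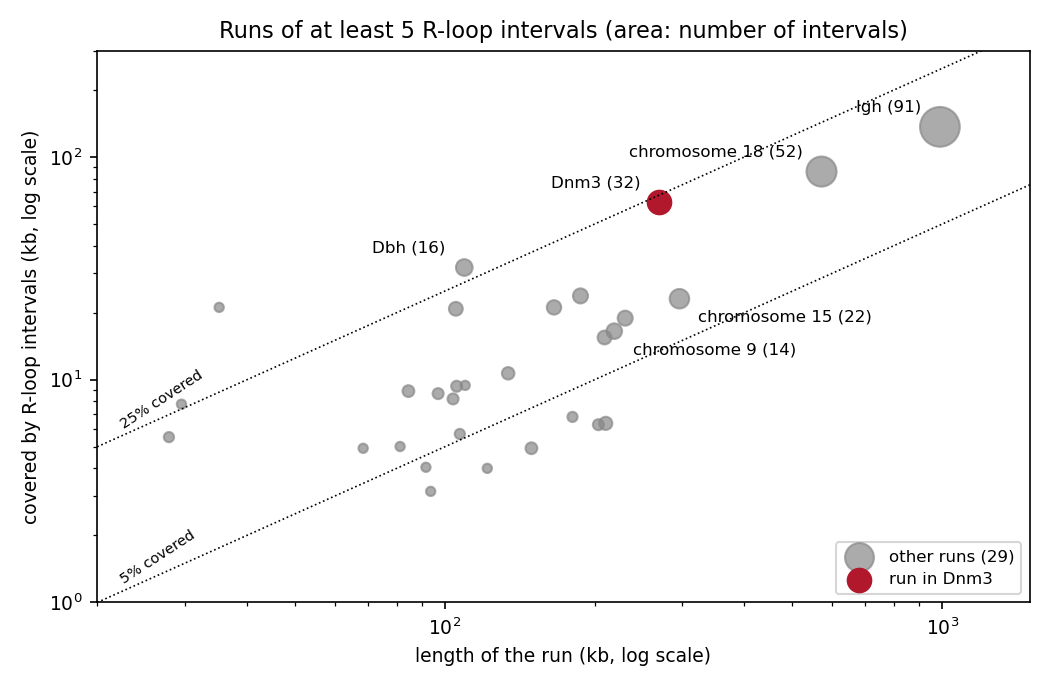
The 30 runs of at least 5 R-loop intervals, by length in kb and by kb covered (both axes logarithmic), with point area showing the number of intervals and dotted lines marking fixed shares covered. The Dnm3 run (269 kb, 62.9 kb covered) stands below the Igh and chromosome 18 runs in size and nearer to the upper line than either.

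The concentration toward the middle was seen in other runs too. Among the 12 runs of 10 or more intervals, the share of covered bases in the middle one of 3 equal parts was 47.4% for Dnm3 and 23.6 to 52.0% for the others. It was higher than in Dnm3 in the chromosome 18 run (48.9%) and the Ttll5 run (52.0%), and the Igh run was at 26.3%. Spearman's rho of width with distance from the centre ran from -0.55 to 0.39 in the other 11, with 10 to 91 intervals each. The Dnm3 value lay inside that range.

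Few runs kept to the inside of a protein-coding gene. Of the 30, 4 did, those in Dnm3, Pard3, Ttll5 and Rora. No protein-coding gene was touched by 16, no RNA polymerase II interval by 22, and no interval of any other list by 18, the Dnm3 run among the latter. The Pard3 run (13 intervals over 231 kb, 8.20% covered) and the Ttll5 run (11 over 105 kb, 19.8% covered) also held no interval of the other lists. In Rora the run of 5 intervals met 1 RNA polymerase II and 1 H3K9me3 interval.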

How the data were processed

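The authors deposited 1 merged interval list per target, whose values are coordinates in bp (another unit than counts or signal) with no score. Starts were counted from 0 and were raised by 1. Per the submitters' processing notes, reads were handled with Bowtie2 2.5.0, fastp 0.12.4, MACS3 3.0.0b1, SAMtools 1.15.1 and ChIPseeker 1.30.3, with mm10 as the build and no roles stated. The sources used here do not give thresholds, the merging rule or the use of controls. Chromosomes 1 to 19, X and Y were used.

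Genes and start sites came from RefSeq tables of GRCm38.p6. An overlap was at least 1 bp, counted with numpy 2.4.6, pandas 2.3.3 and scipy 1.17.1 under Python 3.11.15, tested on simulated data and checked against bedtools 2.31.1. No test was run, because the lists hold no value per sample. The genes named were Dnm1 to Dnm3, the transcripts inside them, protein-coding neighbours within 500 kb, the 10 genes with most R-loop intervals, both of similar length and of all protein-coding genes, the 6 largest runs, and up to 10 members per list. Members and lists were chosen with earlier results of these data known. A few items that this rule names are not reported here.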

Additional observations from a re-analysis of the deposited data

How the results depend on the processing

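Of 22 alternatives, 19 left the scored count or rank within 1.5 times of its main value. Among them was every one tried for the R-loop count in Dnm3 and for its place among genes of similar length. The dynamin superfamily and endocytosis genes with RNA polymerase II were scored by their summed count. That sum was 27 and became 18 with the wider 50% of the list, just within the limit. The run kept its count within that limit but not its length, which was 163 kb (25 intervals, 34.8% covered) with gaps of up to 20 kb against 269 kb (32 intervals, 23.4% covered). The R-loop count in Dnm3 was 32 by midpoint or whole interval and 28 with the wider 50% of the list, and Dnm3 stayed first among genes of 0.5 to 2 times (671 others) and 0.9 to 1.1 times its length (89 others). The 17 intervals of the other lists in the window became 1 with flanks of 100 kb, where fewer bases are searched, and 9 with the wider 50% of each list, with 0 inside Dnm3 in each case. The 2 intervals in Dnm1 and Dnm2 became 0 with the wider 50%. Taken alone, the dynamin superfamily genes with RNA polymerase II fell from 7 to 2, beyond the limit, and the endocytosis genes from 20 to 16. No paired analysis was possible because the lists pool samples and carry no replicate numbers. For the same reason no sample could be left out in turn. Depth is unknown, so an absent interval is no proof of absent signal.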
